A study of Mus musculus with 4 samples.

Results

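Interferon-stimulated genes were followed in single sensory neurons of the mouse dorsal root ganglion (DRG) 7 days after nerve injury. The genes described are 39 members of the 31053 genes in the deposited gene list, taken by symbol: Ifi202b, Ifit1, Ifit2, Ifit3, Ifit3b, Isg15, Irf1, Irf7, Irf9, Stat2, Oasl2, Oas1a, Oas2, Oas3, Usp18, Rsad2, Ifi27, Ifi35, Ifi44, Ifih1, Ddx58, Dhx58, Bst2, Ifitm1, Ifitm2, Ifitm3, Xaf1, Trim25, Parp14, Parp9, Dtx3l, Rtp4, Zbp1, Gbp2, Gbp3, Gbp7, Herc6, Cmpk2 and Eif2ak2. The group was put together with the difference between injured and sham neurons already known, so that difference is given here as a description. All mice were heterozygous Pirt EGFPf mice on a C57BL/6 background, 7 to 8 weeks old, in which a membrane-targeted green fluorescent protein stands in place of the Pirt coding sequence on 1 allele and so marks the majority of DRG neurons. Mice had either bilateral chronic constriction injury of the sciatic nerve (CCI) or sham surgery, and GFP+ cells of lumbar DRGs were sorted and sequenced. There was 1 library for each surgery and sex from 5 pooled mice (20 ganglia), called Male-Sham and Female-Sham for sham surgery, Male-CCI and Female-CCI for injury. Where 4 values follow each other they stand in this order. Brothers and sisters of a litter were operated on alike, which means that litter and surgery cannot be told apart, and sex was not tested. Each surgery therefore had 2 libraries, and p-values below measure at most the spread between these pooled libraries. Where several class sums of 1 library enter a test, they also rest on the spread between classes, which is not replication.

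Interferons are cytokines released mainly on infection. Type I interferons bind the Ifnar1/Ifnar2 receptor, which signals through Jak1 and Tyk2 to transcription factors that include Stat2 and Irf9. These bind the interferon-stimulated response element in promoters and switch on a shared set of antiviral genes, which includes nucleic acid sensors, the IFIT and OAS families, the ubiquitin-like protein ISG15 and membrane proteins that block viral entry. Several of these genes are also transcribed at a basal level in uninfected cells.

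The promoters below are examples that differ in the response element, picked with the courses of their genes after injury known. They cover 250 bases before to 50 bases after the gene start in the RefSeq annotation of GRCm38.p6, read on the strand of the gene. Capitals mark the core motif of the response element, GAAA followed by any 2 bases and a further GAAA (TTTC, any 2 bases, TTTC where it lies on the other strand), and overlapping sites were counted separately. The Isg15 promoter (chr4:156200769-156201068, minus strand) held 3 overlapping sites, at -78, -72 and -66 from the gene start. The Ifit1 promoter (chr19:34640639-34640938, plus strand) held 2, at -104 and -85. The Rsad2 promoter (chr12:26456403-26456702, minus strand) held 1, at -120. Those of Cmpk2 (chr12:26468965-26469264, plus strand), the neighbour of Rsad2 on the opposite strand, and of Ifi202b (chr1:173982795-173983094, minus strand) held none.
Isg15: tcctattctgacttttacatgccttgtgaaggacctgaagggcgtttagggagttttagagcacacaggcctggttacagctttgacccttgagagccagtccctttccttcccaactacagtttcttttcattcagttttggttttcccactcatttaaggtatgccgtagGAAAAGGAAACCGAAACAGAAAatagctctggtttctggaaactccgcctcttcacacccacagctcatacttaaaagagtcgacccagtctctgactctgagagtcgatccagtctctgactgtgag
Ifit1: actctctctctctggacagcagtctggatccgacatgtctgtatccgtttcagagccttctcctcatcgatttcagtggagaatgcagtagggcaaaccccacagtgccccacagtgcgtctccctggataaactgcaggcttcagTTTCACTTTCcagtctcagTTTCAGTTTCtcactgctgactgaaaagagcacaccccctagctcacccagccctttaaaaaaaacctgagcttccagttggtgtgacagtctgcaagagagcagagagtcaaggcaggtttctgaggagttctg
Rsad2: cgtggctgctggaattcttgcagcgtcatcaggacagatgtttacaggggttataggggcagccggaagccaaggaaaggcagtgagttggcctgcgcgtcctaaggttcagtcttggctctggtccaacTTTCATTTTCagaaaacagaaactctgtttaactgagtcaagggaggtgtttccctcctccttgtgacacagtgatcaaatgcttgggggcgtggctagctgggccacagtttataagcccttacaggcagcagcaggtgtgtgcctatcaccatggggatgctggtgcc
Cmpk2: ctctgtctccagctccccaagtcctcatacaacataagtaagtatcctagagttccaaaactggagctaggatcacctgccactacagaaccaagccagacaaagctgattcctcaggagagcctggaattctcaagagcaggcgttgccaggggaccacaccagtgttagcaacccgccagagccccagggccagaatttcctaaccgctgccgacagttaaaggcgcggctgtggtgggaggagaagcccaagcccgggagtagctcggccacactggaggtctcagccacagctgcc
Ifi202b: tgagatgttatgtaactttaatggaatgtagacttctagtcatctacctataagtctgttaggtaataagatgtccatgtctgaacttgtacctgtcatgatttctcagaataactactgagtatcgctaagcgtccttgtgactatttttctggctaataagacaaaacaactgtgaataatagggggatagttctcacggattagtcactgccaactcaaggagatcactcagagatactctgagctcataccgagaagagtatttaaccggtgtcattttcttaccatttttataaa

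A promoter entry was found for 31 of the 39 members, and 17 of these 31 (54.8%) held the motif. Among all 27025 genes with an entry, 1079 (3.99%) held it. The share was 51.1% (23 of 45) in a list of further interferon-stimulated genes, 75% (9 of 12) in the locus around Ifi202b and 55% (11 of 20) in interferon ligands, none of which passed the filter in neurons. It was 9.09% (1 of 11) in interferon receptors and JAK-STAT components and 15.4% (2 of 13) in upstream sensing genes. A match is a run of letters and not a measured binding site, and its absence says only that the letters do not occur in this window. Motif and course after injury did not always go together. Herc6, Ifi44 and Ifit2 held no motif and were called higher over all neurons, whereas Ifitm2 and Stat2 held it and were not called. A link between motif and course was not tested.

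After removal of doublets and shallow cells, 3281 and 5398 sham neurons and 2817 and 3634 CCI neurons remained, with median unique molecular identifier (UMI) counts of 32490 to 56457 per neuron. Neuron markers (Tubb3, Snap25, Uchl1, Prph, Nefl) had median levels of 10064 to 16931 counts per 1e6 UMIs (CPM) in the neuronal clusters, against 668.9 in the cluster of satellite glial cell (SGC)-like cells and 592.1 in that of immune-like cells. The 7 SGC markers summed to 1354 and 1680 CPM in sham neurons and to 917 and 1112 CPM in CCI neurons. The 9 immune markers summed to between 3.29 and 9.99 CPM in neurons, with overlapping surgeries. Endothelial markers summed to 0.598 and 0.697 CPM in sham and 2.46 and 3.37 CPM in CCI neurons, and fibroblast markers to 4.89 and 5.64 against 7.11 and 7.58 CPM. The part of endothelial, fibroblast and immune cells in the results below was not tested, and levels after taking off a glial share are given with the SGC-like cells. Between 215 and 513 cell barcodes were shared by each pair of libraries, and 10% and 2.7% of sham neurons and 14% and 0.908% of CCI neurons carried such a barcode. Counts of calls are therefore also given without those cells.

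CCI neurons held more RNA of most members than sham neurons. In 31 of 39 members (79.5%) both CCI libraries lay above both sham libraries. Among the 36 members with a mean of 1 CPM or more, 28 (77.8%) did so and 4 (11.1%) lay below, whereas among all 12836 genes at that level 33.8% lay above and 49.8% below. On UMI counts summed over neurons, edgeR's quasi-likelihood test called 26 of 38 members tested, 24 higher and 2 lower, at a Benjamini-Hochberg adjusted p below 0.05 and an absolute log2 fold change above 0.5. Of 17222 genes tested, 15.1% were called higher and 12.7% lower. The median log2 fold change was 0.87 over the members and -0.01 over all genes. Since this contrast served to choose the members, nothing is read from the shares. Without the cells of shared barcodes, 26 members were again called, but 22 higher and 4 lower, with Ifitm1 (-1.04) and Ifitm2 (-0.67) added to the lower calls and Ifit2 and Parp9 no longer called.

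**Figure D1:**
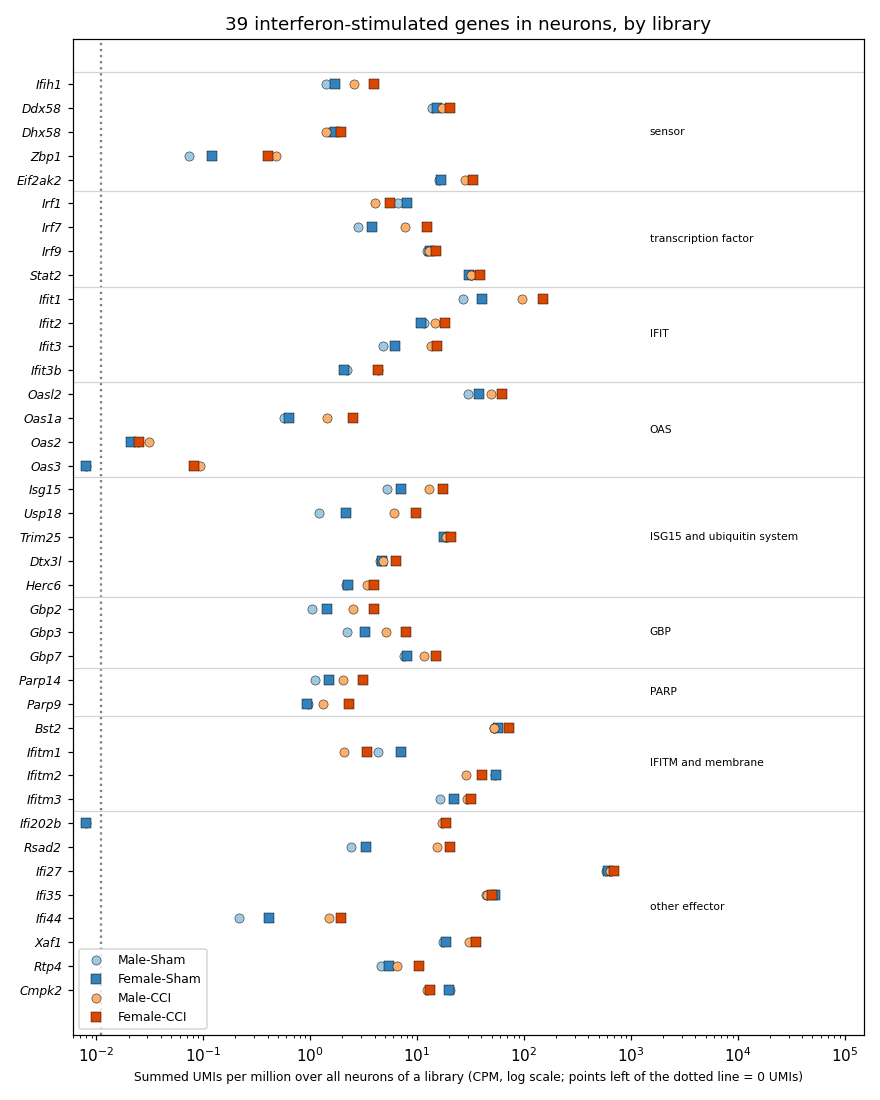
Level of each of the 39 members in the summed neurons of each library, in CPM on a log axis, grouped by role. Points left of the dotted line mark 0 UMIs, as for Ifi202b and Oas3 in both sham libraries. Ifi27 lies at 581 to 695 CPM, and Ifi202b is at 0 in sham and at 17.0 and 18.7 in the CCI libraries.

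Among the sensors of foreign nucleic acid, Ifih1 (MDA5, which binds long double-stranded RNA) measured 1.41 and 1.71 CPM in Male-Sham and Female-Sham and 2.58 and 3.91 CPM in Male-CCI and Female-CCI neurons, a log2 fold change of 1.11 (SE 0.22). Eif2ak2 (PKR), the double-stranded RNA-activated kinase that stops translation, stood at 16.1 and 16.7 CPM in sham against 27.9 and 33.1 CPM in CCI (0.95, SE 0.08). Zbp1, a sensor of Z-form nucleic acid linked to cell death, was scarce, at 0.0740 and 0.121 CPM against 0.479 and 0.407 CPM (2.21, SE 0.29). The surgeries did not overlap for any of these 3 genes as measured, but a glial share of Zbp1 set by Fabp7 would come to 0.152, 0.056, 0.456 and 0.139 CPM, and without it the surgeries of Zbp1 overlapped. The other sensors, Ddx58 (RIG-I) and Dhx58 (LGP2), were not called in all neurons, and Ddx58 had a log2 fold change of 0.40 (SE 0.10).

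The transcription factors of the pathway did not move as 1 group. Irf7, which amplifies type I interferon transcription, measured 2.79 and 3.81 CPM in sham and 7.68 and 12.4 CPM in CCI neurons (1.66, SE 0.31). Irf1, a factor induced mainly by interferon gamma, had the opposite order, with 6.66 and 7.96 CPM in sham and 4.001 and 5.54 CPM in CCI (-0.56, SE 0.17). Stat2 and Irf9, parts of the complex that carries the type I signal, stayed between 30.3 and 38.5 CPM and between 12.4 and 15.2 CPM, and neither was called.

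The IFIT proteins bind viral RNA and hinder its translation. Ifit1 reached 26.7 and 40.1 CPM in sham and 96.7 and 152 CPM in CCI neurons, a log2 fold change of 1.95 (SE 0.38), and was the second most abundant member. For Ifit3 the levels were 4.76 and 6.26 against 13.5 and 15.4 CPM (1.44, SE 0.15), and for its near copy Ifit3b 2.21 and 2.06 against 4.33 and 4.29 CPM (1.07, SE 0.09). Ifit3 and Ifit3b share 12.9% of the 60-base words in their last 500 transcript bases, so their separate counts are uncertain. Ifit2 differed less, at 11.7 and 10.9 CPM in sham and 14.8 and 18.1 CPM in CCI (0.60, SE 0.10).

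OAS enzymes make the oligoadenylates that activate RNase L. Oas1a rose from 0.573 and 0.633 CPM to 1.43 and 2.53 CPM (1.77, SE 0.29), and Oasl2 from 29.9 and 37.7 CPM to 48.7 and 61.8 CPM (0.76, SE 0.18). Oas3 had no UMI in either sham library and 15 and 13 UMIs in the CCI libraries, at least 10.2-fold higher by a floor of 3 UMIs over both sham libraries. Oas2, at 0.0211 to 0.0307 CPM, was below the filter and was not tested.

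ISG15 is coupled to other proteins much as ubiquitin is, and Usp18 removes it and also blocks the type I receptor. Isg15 measured 5.23 and 7.07 CPM in sham and 13.0 and 17.4 CPM in CCI neurons (1.36, SE 0.21). Usp18 was among the members that differed most, at 1.196 and 2.16 against 6.11 and 9.86 CPM (2.29, SE 0.41). Herc6, the mouse ligase for ISG15, stood at 2.17 and 2.28 against 3.40 and 3.96 CPM (0.78, SE 0.11). The ubiquitin ligases Trim25 and Dtx3l ranged from 17.99 to 20.8 CPM and from 4.52 to 6.30 CPM and were not called.

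Guanylate-binding proteins attack the vacuoles of intracellular pathogens. Gbp2 measured 1.04 and 1.43 CPM in sham and 2.52 and 3.92 CPM in CCI (1.43, SE 0.26), Gbp3 2.23 and 3.28 against 5.09 and 7.92 CPM (1.29, SE 0.29), and Gbp7 7.56 and 8.06 against 11.6 and 14.9 CPM (0.82, SE 0.12). The ADP-ribosyltransferases Parp14 (1.11 and 1.52 against 2.02 and 3.11 CPM, 1.02, SE 0.25) and Parp9 (0.955 and 0.934 against 1.32 and 2.28 CPM, 0.99, SE 0.26) were lower in level. In each of these 5 genes both CCI libraries lay above both sham libraries, and Female-CCI lay above Male-CCI.

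At the membrane, Ifitm3, which blocks fusion of incoming virus, measured 16.5 and 22.1 CPM in sham and 29.5 and 31.7 CPM in CCI neurons (0.72, SE 0.15). SGC-like cells held Ifitm3 at 960 to 2350 CPM, so carry-over of glial RNA bears on this gene. If all Fabp7 in neurons (1.16% to 1.9% of the SGC-like level) were carried over, the same share of glial Ifitm3 would amount to 14.2, 23.9, 27.2 and 23.8 CPM in neurons of the 4 libraries, close to the whole measured level. Levels after taking this share off are given with the SGC-like cells. Bst2 (tetherin), which holds budding virus on the cell surface, stayed at 52.3, 57.4, 52.4 and 72.8 CPM, with overlapping surgeries. Ifitm1 and Ifitm2 were lower in both CCI libraries than in both sham libraries without being called, with Ifitm2 at 53.5 and 54.8 CPM in sham and 28.8 and 40.7 CPM in CCI.

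Of the remaining effectors, Rsad2 (viperin), which makes a chain-terminating nucleotide, measured 2.39 and 3.36 CPM in sham and 15.4 and 20.2 CPM in CCI neurons (2.68, SE 0.22). Ifi44 stood at 0.216 and 0.412 against 1.49 and 1.93 CPM (2.48, SE 0.30), and Xaf1, a pro-apoptotic factor, at 17.7 and 18.5 against 30.3 and 35.6 CPM (0.92, SE 0.08). Cmpk2, the mitochondrial nucleotide kinase beside Rsad2 on chromosome 12, went the other way, at 20.5 and 20.0 CPM in sham and 12.5 and 13.2 CPM in CCI (-0.60, SE 0.06). These neighbours, Rsad2 at chr12:26442746-26456452 and Cmpk2 at chr12:26469204-26479837, thus differed in sign over all neurons. In neurons without the injury marker Sprr1a, Cmpk2 lay at 0.03. A class carrying injury genes (CCI-ind-like) held 41 and 135 sham neurons and 1138 and 1353 CCI neurons. Values over all neurons therefore mix classes in unlike shares, and the part of this shift in them was not tested. Ifi27, by far the most abundant member at rank 251 of 31053 genes, changed little from 581 and 609 to 641 and 695 CPM, and Ifi35 (44.5, 53.0, 44.7 and 50.3 CPM) had overlapping surgeries.

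Ifi202b, a mouse gene of the HIN-200 family of DNA-binding proteins on chromosome 1 (chr1:173962568-173982744, minus strand), was not found in sham neurons. It had 0 UMIs in both sham libraries and 2761 and 2983 UMIs in Male-CCI and Female-CCI neurons, at 17.0 and 18.7 CPM. Against the floor of 3 UMIs over both sham libraries it was at least 2088-fold higher. Among all genes it was the only one with 0 UMIs in the neurons of 1 surgery and at least 1 CPM in both libraries of the other. Over all deposited cells, sham libraries held 1 and 2 UMIs, in cells of 513 to 595 UMIs whose barcodes also occurred in a CCI library, against 3201 and 3520 UMIs in CCI. In Sprr1a+ neurons alone, of which the sham libraries held 42 and 144, the bound was at least 91.5-fold. The mice of each surgery came from their own litters, so a difference between litters and the surgery cannot be told apart for this gene.

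The neurons were clustered without the interferon genes, and the classes were named by markers, such as PEP3/4-like peptidergic nociceptors, NP2-like non-peptidergic nociceptors, NF1-like and NF2-like myelinated mechanoreceptors, cLTMR-like C-fiber mechanoreceptors and CCI-ind-like neurons carrying injury genes. A pair of clusters, led by Ly6a and by Rxfp1, stayed unnamed, and the former had 4 and 7 sham cells, too few to test. Over 12 classes, edgeR called 145 of 373 pairs of member and class, 140 higher and 5 lower, against 13129 of 148041 pairs of any gene and class (8.87%). The calls were 20 of 37 members tested in CCI-ind-like neurons (7.33% of all genes), 21 of 34 in PEP1-like (5.24%), 19 of 34 in PEP2-like (4.34%), 19 of 35 in PEP3/4-like (3.52%), 14 of 34 in NP2-like (4.76%) and 12 of 33 in cLTMR-like neurons (1.71%). They were 12 of 28 in NF1-like (16.2%), 9 of 29 in NF2-like (26.5%), 7 of 33 in NP1-like (30.5%), 6 of 30 in NP3-like (2.73%) and 6 of 32 in PEP5-like neurons (3.45%). In the Rxfp1 cluster 0 of 14 were called by edgeR (0.714% of all genes), with 6 at an unadjusted p below 0.05. With DESeq2 the pairs called numbered 93, and without the cells of shared barcodes 106. Ifi202b, called in 6 classes, had no sham UMIs and passed the filter only through the CCI libraries. Since the members were chosen with the difference between surgeries known, nothing is read from these shares.

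NP1-like values need their clusters beside them. A Cd207-led cluster held 6, 24, 103 and 122 NP1-like cells, and the cluster with Sst and Nppb held 82, 63, 26 and 25, so the surgeries drew on different cells of this class.

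**Figure D2:**
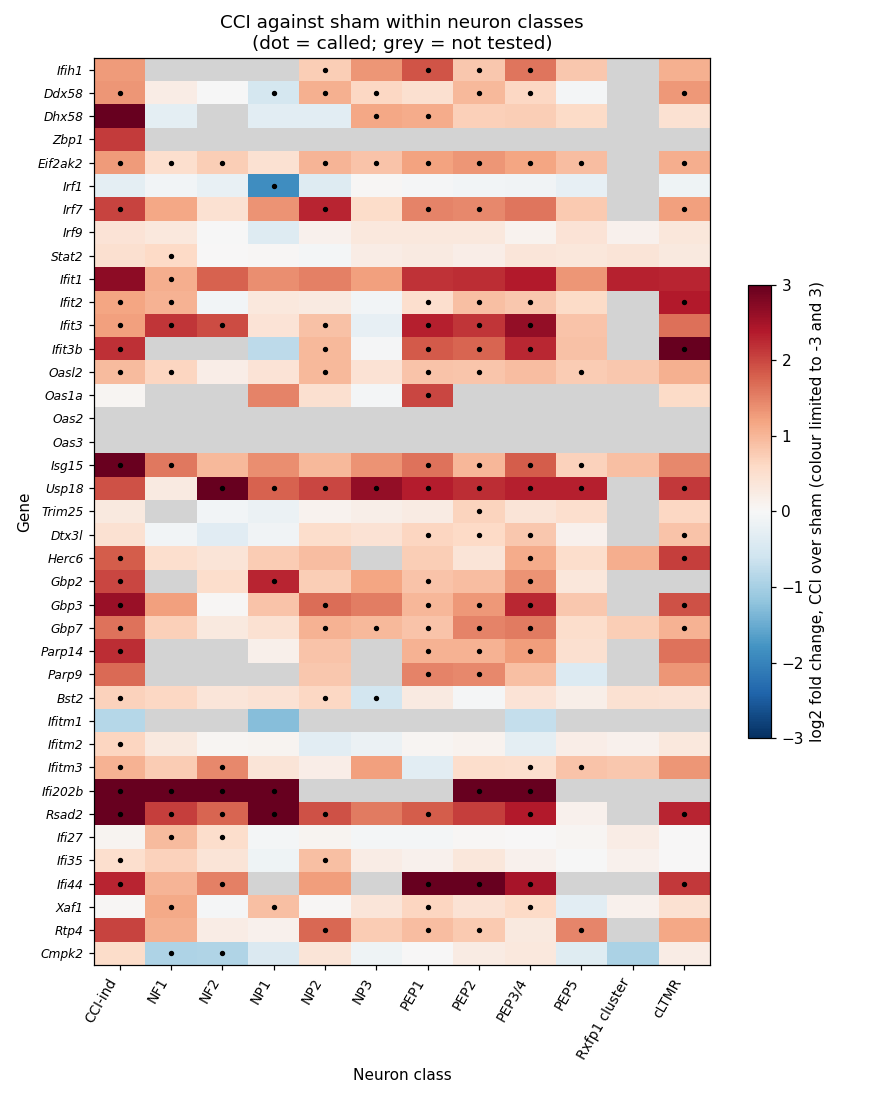
Log2 fold change of CCI over sham for each member in each of 12 neuron classes (names without "-like"), with colour limited to -3 to 3, dots where edgeR called the change and grey where a member was not tested. Eif2ak2, Usp18 and Rsad2 are called in 10, 9 and 8 classes, and Cmpk2 is called lower in NF1 and NF2.

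Eif2ak2 was called higher in 10 of the 11 classes where it was tested, from 0.46 on the log2 scale in NP1-like to 1.32 in PEP2-like neurons, where it stood at 18.2 and 19.8 CPM in sham and 43.7 and 51.8 CPM in CCI. Usp18 was called in 9 of 11 classes, from 0.27 in NF1-like to 3.14 in NF2-like, and Rsad2 in 8 of 11, from 0.13 in PEP5-like to 4.14 in NP1-like neurons. Ifit1 lay above 0 in all 12 classes, from 1.09 in NF1-like to 2.67 in CCI-ind-like neurons, although only 1 class passed the test. It stood at 53.9 and 84.8 against 204 and 200.2 CPM in NP2-like, at 24.8 and 38.9 against 129 and 208 CPM in PEP3/4-like and at 9.12 and 13.6 against 19.1 and 25.3 CPM in NF1-like neurons. In the Ly6a cluster the CCI libraries differed widely, with 41.9 CPM of Ifit1 in Male-CCI and 223 CPM in Female-CCI.

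Irf1 and Cmpk2, lower over all neurons, passed the test in few classes. Irf1 lay below 0 in 10 of the 11 classes tested and was called lower in NP1-like neurons only (-1.85, SE 0.32), and in the other 10 it ranged from -0.40 in NP2-like to 0.05 in NP3-like neurons. Cmpk2 lay above 0 in 6 of 12 classes and was called lower in NF1-like (27.8 and 28.4 against 13.1 and 14.0 CPM) and NF2-like neurons (22.6 and 23.3 against 11.5 and 10.2 CPM). In cLTMR-like neurons the same gene stood at 28.6 and 26.2 against 33.0 and 33.1 CPM, and in CCI-ind-like neurons at 3.78 and 3.22 against 4.59 and 5.54 CPM. Cells with the injury marker Sprr1a (Sprr1a+) numbered 55 of 119 and 32 of 88 NF1-like neurons of the CCI libraries. They were 67 of 109 and 68 of 134 in NF2-like and 0 of 114 and 1 of 208 in cLTMR-like neurons. In sham these 3 classes held 0. The part of Sprr1a+ cells in these differences between classes was not tested. The remaining lower calls were Ddx58 in NP1-like (-0.54) and Bst2 in NP3-like neurons (-0.56).

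Ifi202b was concentrated in a few classes. It measured 30.7 and 36.2 CPM in CCI-ind-like neurons of Male-CCI and Female-CCI, 27.9 and 38.0 CPM in the Ly6a cluster and 42.6 and 31.5 CPM in NP1-like neurons. NF1-like and NF2-like neurons held 3.91 to 6.60 CPM and PEP2-like and PEP3/4-like neurons 3.03 to 3.73 CPM. Within NF1-like neurons the Sprr1a+ cells held 11.98 and 11.8 CPM and the Sprr1a- cells 0.558 and 0 CPM, whereas the Sprr1a- PEP3/4-like cells held 3.16 and 3.19 CPM. NP3-like neurons held none, which by a floor of 3 UMIs per library allows up to 0.564 and 0.733 CPM.

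**Figure D3:**
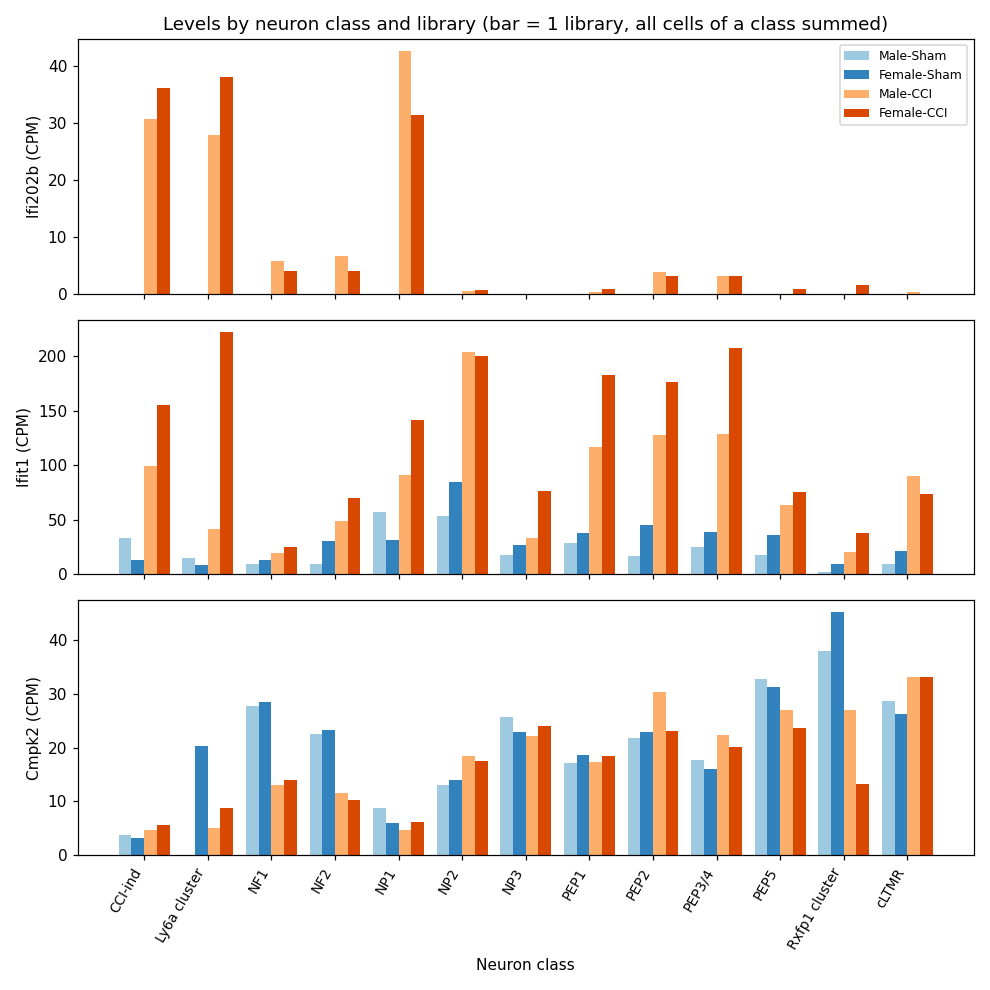
Levels of Ifi202b, Ifit1 and Cmpk2 in CPM by neuron class (names without "-like") and library, as bars from 0. Ifi202b is highest in CCI-ind, the Ly6a cluster and NP1, Ifit1 is higher with CCI in every class shown, and Cmpk2 is lower with CCI in NF1 and NF2; sham bars of the Ly6a cluster rest on 4 and 7 cells.

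The effect of CCI differed between classes for 21 of 36 members tested, by an edgeR F test over the class-by-surgery terms, against 46.1% of 15243 genes. The smallest adjusted p-values were those of Cmpk2 (3.33e-10), Ddx58 (3.83e-09), Ifi27 (6.47e-06) and Gbp3 (6.51e-06). Class sums from 1 library are not independent, and without the cells of shared barcodes 17 members were called. CCI neurons of different classes also differed in their share of Sprr1a+ cells, and the part of this in the test was not tested. For Ifit1, Isg15, Usp18, Rsad2 and Irf7 this test made no call.

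Neurons without the injury marker Sprr1a, a gene switched on in axotomized neurons, were examined separately (3239, 5254, 1350 and 1848 cells). Their members also lay higher in CCI. edgeR called 22 of 37 tested, all higher, against 3.24% of 16402 genes higher and 1.24% lower. The median log2 fold change over the members was 0.92. Here too the members were chosen with the difference between surgeries known, so nothing is read from the shares. Ifit1 stood at 26.7 and 41.2 CPM in sham and 111 and 149 CPM in CCI (1.91), Isg15 at 5.31 and 7.24 against 14.8 and 18.04 CPM (1.36), and Usp18 at 1.202 and 2.18 against 6.54 and 9.49 CPM (2.21). Eif2ak2 measured 16.2 and 17.0 against 33.4 and 38.4 CPM (1.09). Cmpk2 (0.03), Ifitm2 (-0.03) and Irf1 (-0.11) were near 0 in these neurons. The count fell to 9 without Female-CCI and to 13 without Male-Sham, and was 20 without the cells of shared barcodes.

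Within the CCI libraries, where Sprr1a+ and Sprr1a- neurons come from the same mice, 16 of 38 members differed by edgeR, 6 higher and 10 lower in Sprr1a+ neurons. Of 16234 genes tested, 20.9% were higher and 24.7% lower, and the member median was -0.18. The Sprr1a+ sums held 1467 and 1786 neurons of Male-CCI and Female-CCI.

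Ifi202b was the member that differed most, at 29.6 and 34.99 CPM in Sprr1a+ and 2.103 and 2.09 CPM in Sprr1a- neurons (log2 fold change 4.12, SE 0.07, edgeR adjusted p = 2.4e-11). Xaf1 measured 38.2 and 45.0 against 20.9 and 26.1 CPM (1.00, SE 0.04, edgeR adjusted p = 7.98e-09) and Oas1a 1.98 and 3.64 against 0.790 and 1.40 CPM (1.53, SE 0.15, edgeR adjusted p = 4.79e-06). Gbp2 (0.73), Ifi44 (0.63) and the sparse Oas3 (2.995, SE 0.67) were the other higher members. In both libraries the Sprr1a+ neurons lay above the Sprr1a- neurons in these genes.

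Lower in Sprr1a+ neurons were Cmpk2, at 4.41 and 5.76 against 22.0 and 20.8 CPM (-1.91, SE 0.12, edgeR adjusted p = 3.78e-05), and Ifitm2, at 13.2 and 18.8 against 47.2 and 62.9 CPM (-1.61, SE 0.04, edgeR adjusted p = 2.77e-10). Dhx58 stood at 0.568 and 1.09 against 2.41 and 2.84 CPM (-1.51, SE 0.19), Ifitm1 at 1.08 and 1.68 against 3.24 and 5.13 CPM (-1.43, SE 0.13), and Irf1 at 1.97 and 3.56 against 6.40 and 7.54 CPM (-1.19, SE 0.15). Dtx3l, Ddx58, Ifih1, Ifit3b and Gbp7 were lower by smaller amounts, from -0.65 to -0.55.

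Of the 12 core genes used below to find responding neurons, Oas1a and Ifi44 were called higher, Cmpk2 and Ifit3b lower, and 8 were not called. Ifit1 measured 84.8 and 155 CPM in Sprr1a+ and 111 and 149 CPM in Sprr1a- neurons (0.01, SE 0.17, edgeR adjusted p = 0.956). Isg15 (-0.05, SE 0.07, edgeR adjusted p = 0.511) and Usp18 (0.15, SE 0.09, edgeR adjusted p = 0.136) were likewise not called. Rsad2 stood at 16.3 against 14.3 CPM in Male-CCI and at 28.3 against 12.02 CPM in Female-CCI (0.90, SE 0.46, edgeR adjusted p = 0.297), so its libraries differed in size of the difference.

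**Figure D4:**
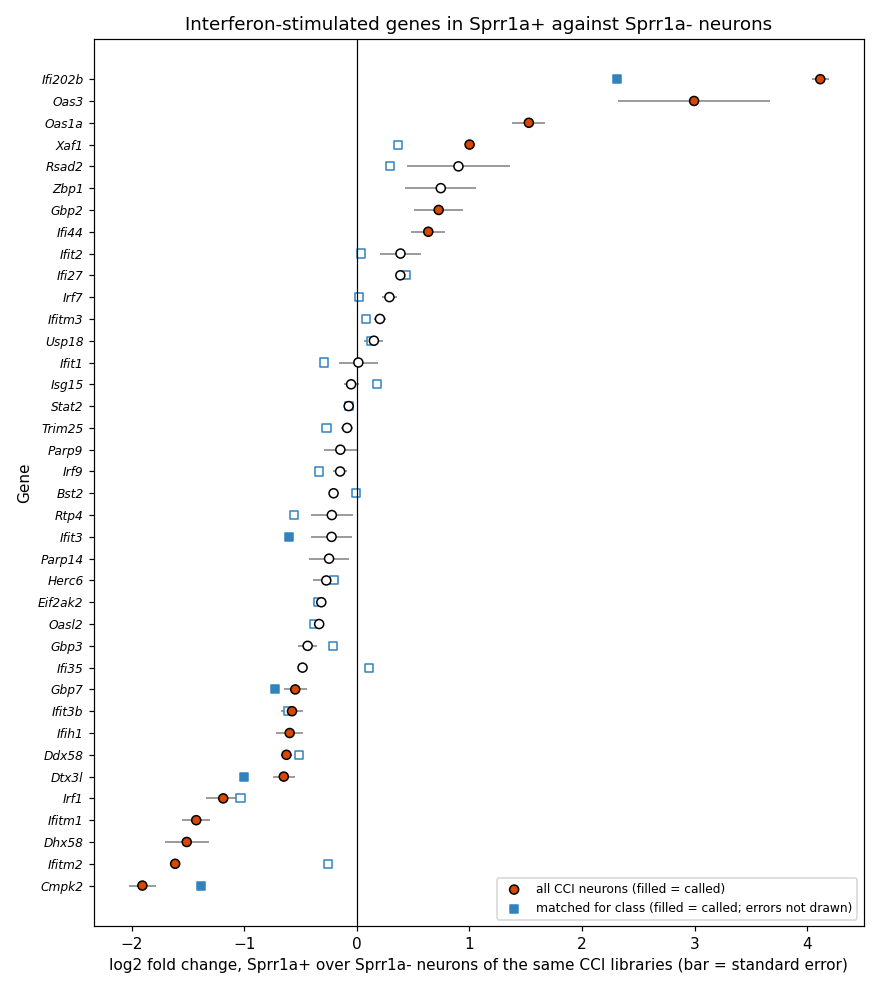
Log2 fold change of Sprr1a+ over Sprr1a- neurons within the CCI libraries for each member, with circles and SE bars for all neurons and squares for sums matched by class, filled where called. Ifi202b lies at 4.12, Cmpk2 at -1.91 and Ifitm2 at -1.61 over all neurons, and Ifit1 at 0.01.

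Sprr1a+ and Sprr1a- neurons differed in class, so sums were also matched within CCI-ind-like, NF1-like, NF2-like and NP1-like neurons, the classes with enough cells of each kind. Here 5 of 28 members were called, against 9.36% of 10780 genes higher and 9.96% lower. The class sums of 1 library share their mice and are not independent, so p-values here also rest on the spread between classes. Ifi202b was higher (2.31, SE 0.60, edgeR adjusted p = 0.0191), and Cmpk2 (-1.38, SE 0.28), Dtx3l (-1.0, SE 0.32), Gbp7 (-0.73, SE 0.24) and Ifit3 (-0.60, SE 0.19) were lower. Ifitm2 (-0.25, SE 0.23) and Ddx58 (-0.51, SE 0.18, edgeR adjusted p = 0.0554) did not pass the test in this comparison, and Ifih1 and Dhx58 were below its filter. Levels of Ifitm2 differed between classes, from 1.92 and 1.81 CPM in NF1-like and 9.33 and 11.5 CPM in CCI-ind-like neurons to 130 and 160 CPM in PEP3/4-like neurons of the CCI libraries. With no filter on low counts only 1 member was called, and without the cells of shared barcodes 4 were.

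SGC-like cells gave a comparison outside the neurons, from 180, 143, 117 and 108 cells. In them the 9 immune markers summed to 1.873 and 1.475 CPM in sham and to 48.1 and 194.7 CPM in CCI. The part of immune RNA in the values of SGC-like cells below was not tested. Of 26 members tested by edgeR, 11 were higher with CCI, against 1.67% of 7258 genes higher and 1.36% lower. Ifit1 measured 8.43 and 11.8 CPM in sham and 125 and 65.5 CPM in CCI, Ifit3 22.5 and 32.5 against 217 and 124 CPM and Isg15 178 and 187 against 497 and 349 CPM. Bst2, at 95.5 and 152 against 350.1 and 222 CPM, was not called in these cells (1.201 on the log2 scale, edgeR adjusted p = 0.115). The log2 fold change with CCI was higher in SGC-like cells than in neurons for 5 of 37 members by edgeR. In this test 0.795% of 16477 genes were called higher and 2.69% lower. The 5 were Cmpk2 (2.11, SE 0.47), Ifit1 (1.24, SE 0.36), Ifit3 (1.10, SE 0.28), Bst2 (0.92, SE 0.19) and Ifitm2 (0.66, SE 0.16). Ifitm2 changed little in SGC-like cells themselves (0.12, SE 0.14), and Cmpk2 was below the filter there. Ifitm2 lay at -0.59 over all neurons and -0.03 in Sprr1a- neurons, and Cmpk2 at -0.60 and 0.03. Neurons were not matched for class here. DESeq2 called none of these 5 (adjusted p from 0.316 to 0.646). Ifi202b had 0 UMIs in SGC-like cells of Male-CCI and 1.82 CPM in those of Female-CCI, below its level in neurons.

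Since SGC-like cells were rich in some members, the level in neurons was recomputed after taking off the glial share set by Fabp7. Isg15 in neurons then measured 2.6 and 3.51 CPM in sham and 7.25 and 13 CPM in CCI, and the fold went from 2.47 to 3.31. Ifit1 (3.72-fold before and 3.71-fold after), Rsad2 (6.19 and 6.21) and Usp18 (4.75 and 4.75) hardly moved. Ifitm3 was left with 2.26, 0, 2.32 and 7.88 CPM, with Male-Sham and Male-CCI nearly level, and its fold went from 1.59 to 4.51. Parp14 went from 1.96-fold to 5.47-fold on levels of 0.305, 0.17, 0.62 and 1.98 CPM. Zbp1 was left with 0, 0.0654, 0.0235 and 0.268 CPM, with overlapping surgeries.

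Whether a few cells carried the members' UMIs was examined cell by cell, with each neuron thinned to 10000 UMIs. A neuron was counted as responding with UMIs of at least 3 of 12 core genes (Ifit1, Ifit3, Ifit3b, Isg15, Usp18, Rsad2, Oasl2, Irf7, Rtp4, Cmpk2, Oas1a, Ifi44). Such neurons made up 4.46% of Male-Sham (137 of 3075, exact 95% interval 3.75 to 5.25), 7.40% of Female-Sham (377 of 5096, 6.69 to 8.15), 13.2% of Male-CCI (357 of 2700, 11.97 to 14.6) and 19.9% of Female-CCI neurons (677 of 3406, 18.6 to 21.3). The intervals cover counting error only, and 206, 302, 117 and 228 neurons were too shallow to count. Without thinning the shares were 41.1%, 31.6%, 44% and 47%, at median depths of 45172, 32490, 56457 and 43547 UMIs per neuron. Without the cells of shared barcodes they were 4.66%, 7.37%, 13.1% and 19.9%. Both CCI libraries lay above both sham libraries at the fixed depth, and the female library above the male in each surgery.

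Responding neurons were found with and without Sprr1a. In Sprr1a- neurons the shares were 4.42% and 7.59% in sham and 16.7% and 22.9% in CCI, and in Sprr1a+ neurons of the CCI libraries they were 10.1% (141 of 1403) and 16.8% (281 of 1676). The core list includes Cmpk2 and Ifit3b, called lower in Sprr1a+ neurons, and Oas1a and Ifi44, called higher. These shares were not matched for class. By class, PEP3/4-like neurons stood at 5.42% and 9.21% in sham and 20.3% and 34.1% in CCI, and PEP2-like neurons at 5.88% and 10.99% against 21.2% and 26.6%, with PEP2-like above PEP3/4-like neurons in each library but Female-CCI. NF1-like neurons stayed at 1.42% and 4.49% against 5.51% and 7.60%, with intervals that overlapped. cLTMR-like neurons stood at 0.578% and 4.02% against 12.04% and 12%.

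**Figure D5:**
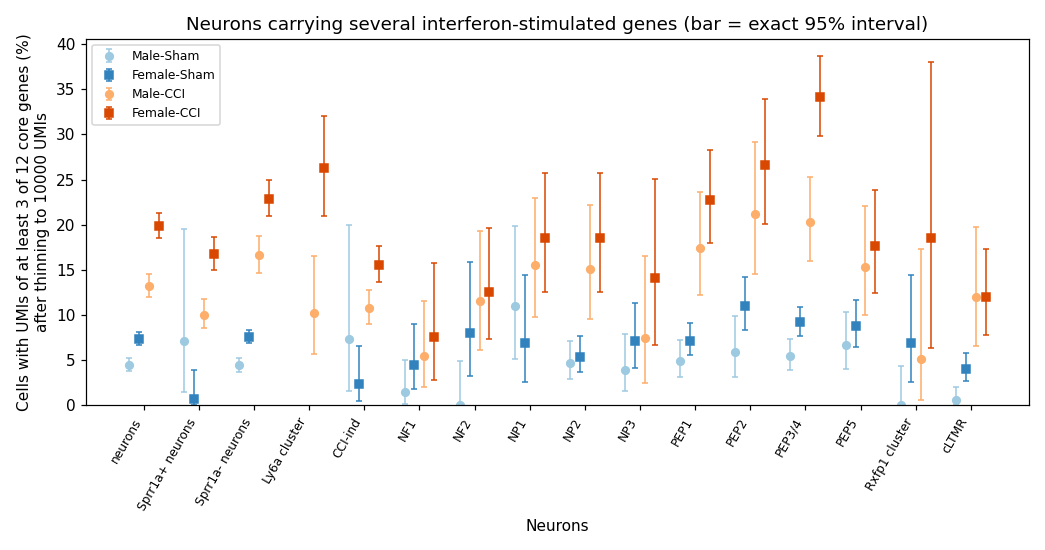
Percent of neurons with UMIs of at least 3 of 12 core genes after thinning to 10000 UMIs, by class or Sprr1a status (names without "-like") and library, with exact 95% intervals for counting error. All CCI neurons lie at 13.2% and 19.9% against 4.46% and 7.40% in sham, and PEP3/4 neurons of Female-CCI reach 34.1%.

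The core UMIs were unevenly spread over neurons. The 5% of neurons with the most core UMIs held 28.2% and 37% of them in sham and 49.5% and 41.1% in CCI, and the variance over the mean was 2.82 and 6.39 in sham and 16.7 and 14.4 in CCI. For Ifit1 the top 5% held 54.3%, 64.4%, 66.8% and 51.5% in the 4 libraries, with overlapping surgeries. For Ifi27 they held 12.5%, 11.8%, 11.7% and 11.5%, and for Stat2 30.5% to 32.8%. A gene of few UMIs is concentrated by counting alone, so these shares are compared only within a gene and between libraries.

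Detection of Rsad2 went with detection of other core members in the CCI libraries and in Female-Sham, and less so in Male-Sham. Ifit1 was detected in 76.7% of the 150 Rsad2-positive and 19.5% of the 2550 Rsad2-negative Male-CCI neurons, and in 82.2% of 292 against 26.8% of 3114 Female-CCI neurons. In sham the same shares were 26.7% against 17% and 41.9% against 17.5%. Irf7 was detected in 32.7% against 4.47% and 43.5% against 6.49% of the CCI neurons, and Cmpk2 in 26% against 11.2% and 21.9% against 10.9%. In Male-Sham, with 86 Rsad2-positive neurons, Irf7 (2.33% against 2.61%) and Cmpk2 (14% against 18.1%) went the other way, and in Female-Sham, with 160, they stood at 14.4% against 3.4% and 25.6% against 18.4%. Ifi27, detected in nearly all neurons, gave 96% against 94.9% and 97.6% against 96.2%.

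Immune transcripts were scarce in responding neurons, though not equal to those of the others. Ptprc, the leukocyte marker CD45, measured 0, 0.0778, 0 and 0.0666 CPM in those of the 4 libraries. C1qa stood at 0, 1.4, 1.57 and 1.6 CPM in responding against 1.02, 0.177, 0.812 and 0.436 CPM in other neurons, and Tyrobp at 0.152, 0.389, 0.639 and 0.399 against 0.337, 0.0744, 0.219 and 0.21 CPM, higher in responding neurons of each library but Male-Sham. Lyz2 and Csf1r ranged from 0.545 to 2.18 CPM in responding neurons and from 0.229 to 1.98 CPM in the others, while the 9 immune markers together measured 3853 CPM or more in immune-like cells. Median UMI counts were slightly lower in responding neurons than in the others of each library. Among genes outside the core list, Bst2 measured 182 against 33.9 CPM in Male-CCI and 210 against 40.7 CPM in Female-CCI. Ifi27 was lower in responding neurons of both CCI libraries (583 against 651 and 644 against 710 CPM). Mx1, an antiviral GTPase, stood at 6.44 against 0.297 and 7.19 against 0.405 CPM. Bst2 was also higher in responding sham neurons (127 against 49.2 and 190 against 47.7 CPM). The glial markers Fabp7 (244 against 150 and 256 against 179 CPM in CCI) and Apoe (925 against 565 and 1020 against 705 CPM) were higher in responding neurons too, and the part of glial and immune RNA in the difference was not tested.

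Ifi202b and the core response were not the same cells, though they overlapped. After thinning, Ifi202b was detected in 16.5% and 15.9% of Sprr1a+ and 1.08% and 1.73% of Sprr1a- neurons of Male-CCI and Female-CCI. Responding CCI neurons held it at 29.8 and 40.6 CPM against 15.1 and 13.6 CPM in the others. Sprr1a+ neurons with at least 3 Ifi202b UMIs (256 and 284 cells) were set beside those with none (922 and 1190 cells) at nearly equal depth, a split chosen after the data were seen and given as a description. Rsad2 was higher by 2.27 and 1.84 on the log2 scale, Isg15 by 1.89 and 1.90 and Ifit1 by 1.75 and 2.09. Of the 38 other members, 36 (94.7%) were higher in both libraries, against 27.4% of 12198 genes. Those genes had 1 CPM or more in the neurons without Ifi202b, whereas the members were not filtered by level. The neighbouring Ifi203 (2.73 and 2.65) and Mndal (2.22 and 2.46) were higher as well, and neither shares a 60-base word with Ifi202b transcripts.

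Interferon ligands were at the detection limit in the neurons. None of 21 ligand genes passed the filter, and Ifnb1 and Ifng had 0 UMIs in all 4 libraries. Of 14 receptors and JAK-STAT components 3 were called higher and none lower by edgeR, beside 15.1% of all genes called higher, among them Socs3, a feedback inhibitor of cytokine receptors, at 43.2 and 48.2 CPM in sham and 95.7 and 104 CPM in CCI (1.18, SE 0.07). The receptor chains Ifnar1 (21.7, 20.4, 20.5 and 21.6 CPM) and Ifnar2 (13.2, 12.6, 14.2 and 13.6 CPM) were not called. In Sprr1a- neurons 0 of the 14 were called. Of 14 upstream sensing genes tested 1 was called, Irf8, at 0.0678 and 0.0633 against 0.129 and 0.257 CPM (1.60, SE 0.43).

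In a wider list of interferon-stimulated genes outside the 39, 25 of 49 were called higher and none lower in all neurons. Over all genes 15.1% were called higher. The median log2 fold change of the list was 0.60. In Sprr1a- neurons 17 of 46 were called (3.24% of all genes). This list was chosen with earlier results of these data known. Slfn2, without a UMI in sham, passed the filter only through the CCI libraries, so nothing is read from these counts. Slfn9 went from 0.253 and 0.322 CPM to 4.69 and 5.93 CPM (4.25, SE 0.18), Trim30a from 0.0431 and 0.238 to 1.30 and 2.23 CPM (3.65, SE 0.66), and Slfn8 from 0.142 and 0.116 to 0.910 and 0.820 CPM (2.80, SE 0.21). Slfn2 had no UMI in sham and 0.301 and 0.307 CPM in CCI, at least 35.6-fold higher. The chemokine Ccl5 was scarce, at 0.0247 and 0.0158 against 0.357 and 0.119 CPM (3.59, SE 0.75). In SGC-like cells its log2 fold change with CCI was 7.56 (SE 0.46). The part of glial or immune RNA in its level in neurons was not tested.

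Neighbours of Ifi202b on chromosome 1 were higher in CCI neurons as well. All 7 genes of this locus that could be tested were called higher, Ifi202b included, beside 15.1% of all genes called higher. Ifi202b, Ifi205 and Ifi211, near 0 in sham, passed the filter only through the CCI libraries, so nothing is read from this count. As for Ifi202b, litter and surgery cannot be told apart for these neighbours. Ifi211 measured 0.00616 and 0.0422 CPM in sham and 0.682 and 1.41 CPM in CCI (5.37, SE 0.66), Ifi204 0.0801 and 0.121 against 1.78 and 3.14 CPM (4.64, SE 0.39) and Ifi203 0.0801 and 0.185 against 2.77 and 3.004 CPM (4.46, SE 0.29). Ifi205 was at 0 and 0.00528 CPM in sham and 0.0861 and 0.150 CPM in CCI (5.10, SE 0.82). In Sprr1a- neurons 5 of 6 genes of this locus were called, beside 3.24% of all genes called higher.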

How the data were processed

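The data were 4 single-cell RNA-seq libraries (10x Genomics 3′ v3 chemistry). Per the labels and the submitters' processing notes, the authors aligned reads to mm10 with Cell Ranger 2.1.1 and deposited raw UMI counts per gene and cell, not normalized. Deposited cells numbered 5019 and 8035 in Male-Sham and Female-Sham and 4019 and 6618 in Male-CCI and Female-CCI, with 195684124 to 237069156 UMIs per library. The 39 members and all gene lists were chosen with earlier results of these data known.

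From these counts, cells with under 1500 genes or over 10% mitochondrial UMIs were left out. Scrublet (scanpy 1.11.5, expected rate 0.1) scored cells for doublets. The 837, 1381, 601 and 912 cells with the highest scores were removed, as many per library as the study reported as doublets. Cells were integrated and clustered with Seurat 5.3.0 (resolution 0.8), without interferon genes among the variable genes, and clusters were named from fixed markers (at least 3). Sprr1a+ neurons had ln(1 + 10000 × UMIs / total) above 1. Counts were summed per library and tested with edgeR 4.0.16 (quasi-likelihood, robust, TMM, filterByExpr, Benjamini-Hochberg over all genes tested). A call needed an adjusted p below 0.05 and an absolute log2 fold change above 0.5; sums needed at least 10 cells in each library. Comparisons within the CCI libraries had the library as a block, and the class-matched comparison had class by library. CPM is the count of a gene scaled to 1e6 UMIs of the summed cells, and floors are 3 UMIs. SE is the absolute log2 fold change divided by the square root of the F value of the test, not a separately fitted error. Cells were thinned to 10000 UMIs to compare shares, with exact Clopper-Pearson 95% intervals. The tests were also run on simulated counts with known changes. Each sum was drawn independently there, so the simulation does not cover sums that share mice, or differences between litters.

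Per-library values are printed for each member called in all neurons and for the 5 with the highest mean CPM, and the other members by counts and ranges. Further lists are named by the called genes with an absolute log2 fold change above 1, at most 5 per list. Ifnar1, Ifnar2, Mx1, the lower members of the Sprr1a comparison and the genes set beside Ifi202b-positive neurons were named after their values were seen. Alternatives were DESeq2 1.42.0, no filter, no TMM, sex as a block, leaving out each library, doublets kept, at least 3000 genes per cell, other Sprr1a limits, resolutions 0.4 and 1.2, other thinning and core minimums, and, chosen after seeing the data, leaving out cells whose barcode occurred in another library. Promoter sequences came from RefSeq.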

Additional observations from a re-analysis of the deposited data

Results flagged for a closer look

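The CCI effect itself differed between SGC-like cells and neurons for 5 members by edgeR's interaction test. It was higher in SGC-like cells by 1.24 on the log2 scale for Ifit1, 1.10 for Ifit3, 0.92 for Bst2, 0.66 for Ifitm2 and 2.11 for Cmpk2. In SGC-like cells themselves Ifitm2 changed little (0.12, SE 0.14) and Cmpk2 was not tested, while both lay lower over all CCI neurons. SGC-like cells numbered 108 to 180 per library, and DESeq2 called none of these 5. Immune markers were higher in SGC-like cells of both CCI libraries, and their part in these differences was not tested.

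The CCI effect also differed between neuron classes for 21 members by edgeR's F test over class-by-surgery terms. Among the RNA sensors the adjusted p was 0.0119 for Ifih1, 3.83e-09 for Ddx58, 0.0172 for Dhx58 and 0.000143 for Eif2ak2. For the transcription factors it was 0.0237 for Irf1 and 0.000675 for Stat2. In the IFIT and OAS families it was 0.00164 for Ifit2, 0.000425 for Ifit3, 0.0049 for Ifit3b, 0.00117 for Oasl2 and 0.0129 for Oas1a. At the membrane it was 0.00364 for Bst2 and 0.0105 for Ifitm1. Among ubiquitin-system and guanylate-binding members it was 0.00579 for Trim25, 0.0369 for Dtx3l, 6.51e-06 for Gbp3 and 0.00428 for Gbp7. The remaining effectors gave 6.47e-06 for Ifi27, 0.000714 for Ifi35, 0.000237 for Xaf1 and 3.33e-10 for Cmpk2. Without the cells of shared barcodes the edgeR adjusted p was 0.114 for Ifih1, 0.0787 for Dhx58, 0.0901 for Bst2, 0.185 for Ifitm1 and 0.525 for Dtx3l. Class sums of 1 library share their mice, and 46.1% of all genes were called by this test. CCI neurons of different classes also differed in their share of Sprr1a+ cells, whose part was not tested.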

How the results depend on the processing

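The libraries carry no replicate numbers in the labels, so sex served as the replicate block. With this block 29 members were called in all neurons, 25 in Sprr1a- neurons and 176 pairs of member and class, against 26, 22 and 145 without it. Leaving out each library in turn gave 20 to 26 members in all neurons, 108 to 151 pairs and 9 to 23 members in Sprr1a- neurons, with 9 when Female-CCI was left out and 13 when Male-Sham was. Calls in all neurons numbered 27 with DESeq2, 19 without a filter and 26 without TMM, and 16 of the 26 called members were called under every setting run. Ifit1 was not among the 16 (edgeR adjusted p from 0.0877 to 0.156 without a filter, without Female-CCI and without either sham library). DESeq2 called 93 pairs of member and class and 1 member, a lower one, in the comparison of SGC-like cells with neurons, where edgeR called 5. Without a filter the class-matched Sprr1a comparison called 1 member in place of 5, and the test between classes 32 in place of 21; the cause was not tested.

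The share of responding neurons (4.46%, 7.40%, 13.2% and 19.9%) was 0.305%, 0.834%, 2.7% and 4.18% at 2000 UMIs, 18.6%, 22.1%, 26.2% and 34.7% with at least 2 core genes, 0.39%, 1.35%, 3.78% and 7.96% with at least 5, and 41.1%, 31.6%, 44% and 47% without thinning. Ifi35 in all neurons ranged from -0.12 (without Male-Sham) to 0.15 (without Female-Sham), with -0.07 without Female-CCI, -0.04 without TMM and -0.07 without the cells of shared barcodes, and Bst2 from -0.01 (without Female-CCI) to 0.46 (without Male-CCI). With 2 pooled libraries per surgery, and litter following surgery, the spread between mice was not measured, and SGC-like sums rest on few cells.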

Other observations

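The members were mostly higher in the female libraries. Among the 36 members with a mean of 1 CPM or more, 29 (80.6%) were higher in Female-Sham than in Male-Sham and also higher in Female-CCI than in Male-CCI, against 24.8% of 12836 genes. In CCI alone 35 of 36 (97.2%) were higher in the female library, with a median log2 ratio of female over male of 0.38, and in sham the median was 0.20. Over all genes the medians were -0.00 and -0.02. Usp18, for example, stood at 1.196 and 2.16 CPM in Male-Sham and Female-Sham and at 6.11 and 9.86 CPM in Male-CCI and Female-CCI. Each sex had 2 libraries, 1 of each surgery, and the difference was not tested.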
